A study of Mus musculus with 3 samples.

Results

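The 9 genes described here encode RNA-binding proteins that set how long cytokine mRNAs last: Zfp36, Zfp36l1, Zfp36l2, Zc3h12a, Zc3h12c, Rc3h1, Rc3h2, Elavl1 and Khsrp. They were taken by gene name from a deposited table of 26661 genes, and each name matched 1 row. All 9 were among the 12197 genes with at least 1 FPKM (fragment counts divided by transcript length and by library size) in at least 1 library, which were the genes compared. The cells were RAW264.7, a mouse macrophage-like tumour line, labelled wild type. One library came from cells pretreated for 0.5 h with harmine at 10 µM and then given lipopolysaccharide (LPS) at 0.5 µg/ml for 6 h. A second came from cells given the same LPS without harmine, and the third, called control, from cells kept in ordinary medium. LPS is a bacterial glycolipid that triggers toll-like receptor 4, and harmine is a plant alkaloid known as an inhibitor of the kinase DYRK1A. A library of harmine without LPS was not analysed here, so effects of harmine with and without LPS cannot be told apart.

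Each group holds 1 library. The differences below therefore have no replicate check and no p-values, and any variation between cultures is part of them. The deposited counts summed to 56391972 with harmine plus LPS, 52845589 with LPS and 58169999 in control. In each library more genes had a count of 4 than of 3 (994 against 619 with harmine plus LPS), and 4 counts were taken as 1 read pair; this is an assumption, since counts of 1 to 3 also occur. The ranges in brackets below are 95% intervals that cover counting error only and rest on it. For Zfp36 with LPS against control, for example, the interval of the ratio would be 7.97 to 8.51 with 1 count per pair in place of 7.72 to 8.80. The labels give lung as the tissue. Of 10 macrophage markers, 9 had at least 1 FPKM in every library and Mertk did not. The list summed to 1586 FPKM with harmine plus LPS, 2021 FPKM with LPS and 2141 FPKM in control, while none of the lung epithelium, B cell or endothelium markers in the table reached 1 FPKM. Epithelial markers summed to 19.1 FPKM with harmine plus LPS, 13.0 with LPS and 4.17 in control, and fibroblast markers to 8.90, 9.0 and 1.25 FPKM in the same libraries. T cell markers summed to at most 2.66 FPKM. Their part in the differences below was not tested. In a bulk library, fewer cells carrying a transcript and less transcript per cell cannot be told apart.

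Cytokine mRNAs carry short destabilising elements in their 3′ untranslated regions (3′ UTRs). AU-rich elements, built from repeats of AUUUA, are bound by the tristetraprolin family (Zfp36, Zfp36l1, Zfp36l2) and by KSRP (Khsrp), which recruit deadenylases and exonucleases, and by HuR (Elavl1), which is known mainly for stabilising the mRNAs it binds. Stem-loop elements are bound by roquin 1 and 2 (Rc3h1, Rc3h2), which recruit deadenylases, and are cut by the endonucleases regnase 1 and 3 (Zc3h12a, Zc3h12c). In macrophages the decay-promoting ones limit the output of TNF, IL-6 and other mediators, and several are themselves encoded by mRNAs with such elements. Expression libraries measure transcript levels and give no decay rates.

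Copies of AUUUA are shown first, because several of the regulators bind AU-rich elements in target transcripts. The regulators' own mRNAs were searched for the same letters. Each line gives the 30 bases of an annotated 3′ UTR (GENCODE M21, GRCm38/mm10) that held the most copies of ATTTA, the DNA form of AUUUA, which stands in capitals. Sequences read 5′ to 3′ along the mRNA.
Zfp36 (chr7:28376958-28376987, minus strand): cctttATTTAtgacgactttATTTAttgta
Zfp36l2 (chr17:84184918-84184947, minus strand): gaaaaactATTTAacttATTTAttatcttg
Zc3h12a (chr4:125119046-125119075, minus strand): ttgtatctctgtcATTTAaggagacgctgc
Elavl1 (chr8:4285777-4285806, minus strand): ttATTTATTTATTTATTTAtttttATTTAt
Tnf (chr17:35199678-35199707, minus strand): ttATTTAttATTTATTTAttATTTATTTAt
Cxcl2 (chr5:90905327-90905356, plus strand): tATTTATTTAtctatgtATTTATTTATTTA
Csf2 (chr11:54247325-54247354, minus strand): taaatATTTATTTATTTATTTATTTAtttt
The target stretches of Tnf, Cxcl2 and Csf2 each held 5 copies, in 1 run of overlapping copies for Csf2 and in separate groups for Tnf and Cxcl2. Among the regulators only the Elavl1 stretch held as many, whereas those of Zfp36 and Zfp36l2 held 2 and that of Zc3h12a held 1. The Zc3h12a stretch is thus a lone copy and not a run of repeats.

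Counted over the whole 3′ UTR on the mRNA strand, with overlapping matches, all 9 regulators had at least 1 ATTTA, as did 69.2% of the 9963 compared genes with an annotated 3′ UTR. The longer heptamer TATTTAT, which contains ATTTA and is close to the site preferred by tristetraprolin, was in 7 of the 9 and in 29.3% of those genes. Long 3′ UTRs hold more matches, so each was set beside the 3′ UTRs within 10% of its length, its own included. The 3′ UTR of Zfp36 has 774 bases and 3 heptamers, and 1.10% of the 547 3′ UTRs of like length held at least as many. Zfp36l1 and Zfp36l2 also held 3 each, in 1835 and 1822 bases, as did 4.33% and 4.44% of 3′ UTRs of like length. Elavl1 held 8 in 4218 bases, and of 356 3′ UTRs of like length 0.281% did, which is that of Elavl1 itself. Rc3h2 held 3 in 5331 bases, Rc3h1 and Zc3h12c 2 each, and Zc3h12a and Khsrp none. For these the share of 3′ UTRs of like length with at least as many was 16.9% for Rc3h2, 43.3% for Rc3h1 and 27.3% for Zc3h12c. A match describes the letters and does not show binding.

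Set against control, the LPS library shows which regulators differ after 6 h of stimulation. Of the 9, 3 stood 2-fold or more higher on the log2(FPKM + 1) scale (Zfp36, Zc3h12a and Zc3h12c) and 1 stood 2-fold or more lower (Zfp36l2), where 5.79% of all compared genes were higher and 7.21% lower. At 1.5-fold, Rc3h1 and Rc3h2 joined the higher genes and Zfp36l1 and Khsrp the lower ones, making 5 and 3, beside 11.7% and 19.3% of all genes. Elavl1 was within 1.5-fold. All counts of genes past 2-fold or 1.5-fold, here and below, are on that scale, which shrinks differences where FPKM is low, whereas folds with brackets are plain FPKM ratios. The 9 had a median of 0.63 log2, beside -0.13 log2 over every compared gene.

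**Figure D1:**
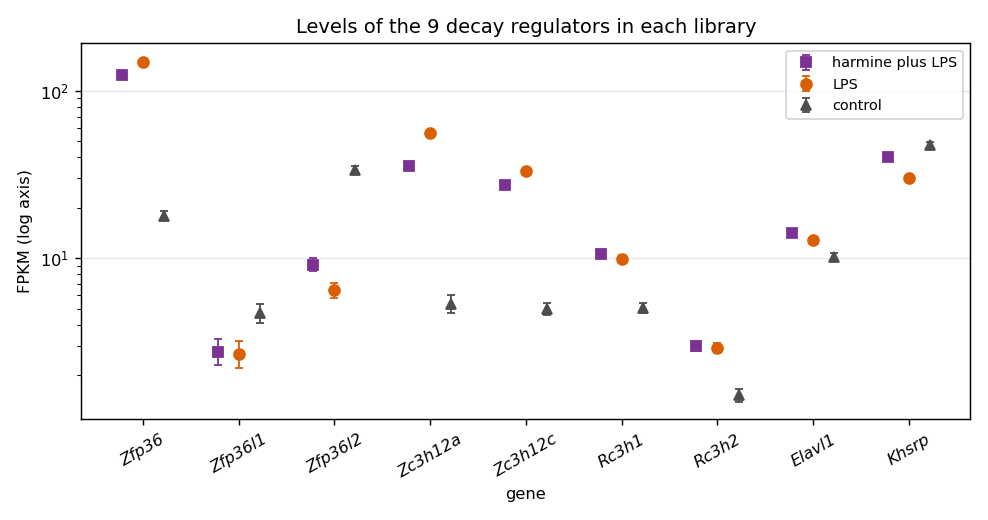
FPKM of each of the 9 regulators (log axis) with harmine plus LPS (squares), with LPS (circles) and in control (triangles), 1 library each; bars are 95% intervals for counting error. Zfp36, Zc3h12a and Zc3h12c lie far above control in both LPS libraries, and Zfp36l2 far below it.

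Zfp36 (chromosome 7, 28376784 to 28380253) encodes tristetraprolin, which brings deadenylases to AU-rich mRNAs. It stood at 125 FPKM with harmine plus LPS, 148 FPKM with LPS and 18.0 FPKM in control. Both LPS libraries were far above control, with LPS alone the highest. The LPS to control ratio was 8.23 (7.72 to 8.80), and 0.828% of compared genes had a larger log2 difference. With LPS, Zfp36 was at the 97.5th percentile of compared genes by FPKM, against the 76.3rd in control.

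Zfp36l2 (chromosome 17, 84183931 to 84187947), its paralogue with the same kind of paired zinc fingers, had the opposite pattern. It stood at 9.15 FPKM with harmine plus LPS, 6.43 FPKM with LPS and 33.8 FPKM in control. It was 5.25-fold (4.68 to 5.91) lower with LPS than in control, and 0.328% of compared genes had a more negative log2 difference. Zfp36l1 (chromosome 12, 80107754 to 80113013), the third paralogue, stood at 2.76 FPKM with harmine plus LPS, 2.67 FPKM with LPS and 4.72 FPKM in control, and was 1.77-fold (1.41 to 2.22) lower with LPS than in control. The LPS libraries lay close together, below control. Its value is the least certain of the 9: of its 3128 words of 100 bases, 1476 also occur, on the opposite strand, in the annotated antisense RNA Gm26669, and the sources used here do not say whether counting used strand. Overlapping genes with rows of their own were low beside their partners: Gm44710, antisense to Zfp36, was at most 0.428 FPKM in any library, and Ccl25, which overlaps Elavl1 by 204 bases, reached 2.01 FPKM with harmine plus LPS.

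The make-up of the tristetraprolin family therefore differed between libraries. Its 3 members summed to 136 FPKM with harmine plus LPS, 157 FPKM with LPS and 56.5 FPKM in control. Zfp36 made up 91.3% of the sum with harmine plus LPS and 94.2% with LPS, against 31.8% in control. Zfp36l2 made up 6.70% and 4.10% in the 2 LPS libraries, against 59.8% in control. Per length, Zfp36 was 23.0 times as abundant as Zfp36l2 with LPS and 0.532 times as abundant in control.

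**Figure D2:**
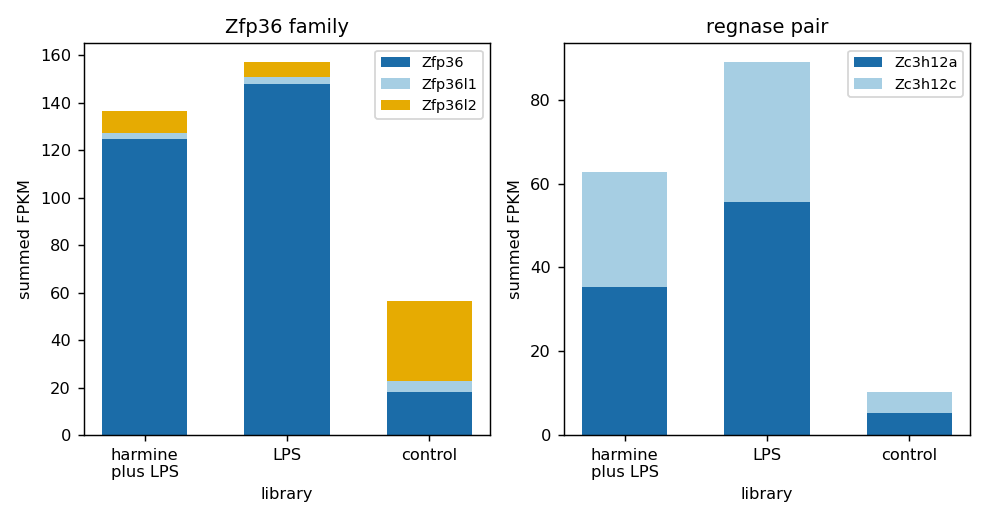
Summed FPKM of the tristetraprolin family (left) and of the 2 regnase genes (right) in the harmine plus LPS, LPS and control libraries, split by gene. Zfp36l2 is the largest part of the left control bar, with 59.8% of the sum, and Zfp36 is over 90% of both LPS bars (91.3% and 94.2%), while the regnase bars are split more evenly.

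Zc3h12a (chromosome 4, 125118423 to 125127840) encodes regnase 1, an endonuclease that cuts stem-loops in mRNAs such as that of Il6. It stood at 35.3 FPKM with harmine plus LPS, 55.7 FPKM with LPS and 5.35 FPKM in control. The 3 libraries were well separated, with LPS alone the highest. Its LPS to control ratio of 10.4 (9.14 to 11.9) was the largest of the 9 regulators. Zc3h12c (chromosome 9, 52111344 to 52168572), encoding the related nuclease regnase 3, stood at 27.4 FPKM with harmine plus LPS, 33.3 FPKM with LPS and 5.00 FPKM in control. Its LPS to control ratio was 6.66 (6.09 to 7.29). In control the pair lay at 5.35 and 5.00 FPKM, and Zc3h12a was 1.67 times as abundant as Zc3h12c with LPS, against 1.07 times in control. The other family members, Zc3h12b and Zc3h12d, were under 1 FPKM in every library.

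The roquins differed by less. Rc3h1 (chromosome 1, 160906418 to 160974978) stood at 10.6 FPKM with harmine plus LPS, 9.92 FPKM with LPS and 5.05 FPKM in control. Rc3h2 (chromosome 2, 37370069 to 37422903) stood at 3.00, 2.91 and 1.52 FPKM in the same order. The LPS to control ratios were 1.97 (1.82 to 2.13) for Rc3h1 and 1.92 (1.71 to 2.14) for Rc3h2, close to 2-fold but under it. The ratio of Rc3h1 to Rc3h2 stayed between 3.32 in control and 3.54 with harmine plus LPS, with 3.40 for LPS alone.

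Khsrp (chromosome 17, 57021051 to 57031522) encodes KSRP, which promotes decay of AU-rich mRNAs through the exosome. It stood at 40.2 FPKM with harmine plus LPS, 30.0 FPKM with LPS and 47.5 FPKM in control, 1.58-fold (1.5 to 1.67) lower with LPS than in control. Elavl1 (chromosome 8, 4285382 to 4325413) encodes HuR, the stabilising member of the set. It stood at 14.2, 12.8 and 10.2 FPKM in the same order, with an LPS to control ratio of 1.26 (1.18 to 1.34). Zfp36 was 8.80 times as abundant as Elavl1 with harmine plus LPS and 11.5 times with LPS, against 1.76 times in control. Khsrp was 2.84 and 2.34 times as abundant as Elavl1 in those LPS libraries, against 4.65 times in control.

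By FPKM, the order in control was Khsrp, Zfp36l2, Zfp36, Elavl1, Zc3h12a, Rc3h1, Zc3h12c, Zfp36l1 and Rc3h2. In control, each neighbouring pair among Zc3h12a, Rc3h1, Zc3h12c and Zfp36l1, between 5.35 and 4.72 FPKM, had overlapping counting intervals. With LPS the order was Zfp36, Zc3h12a, Zc3h12c, Khsrp, Elavl1, Rc3h1, Zfp36l2, Rc3h2 and Zfp36l1, and only the last 2 had overlapping intervals. With harmine plus LPS the order differed only in Khsrp, which stood ahead of both regnase genes. The 8 decay-promoting regulators summed to 253 FPKM with harmine plus LPS, 289 FPKM with LPS and 121 FPKM in control. Khsrp and Zfp36l2 were the largest parts of that sum in control, with 39.3% and 28.0%, and Zfp36 was the largest in both LPS libraries, with 49.2% for harmine plus LPS and 51.2% for LPS.

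Harmine plus LPS was next set against LPS alone, which shows how the regulators differ when harmine precedes the stimulus. None of the 9 regulators differed 2-fold or more between harmine plus LPS and LPS alone, where 0.664% of all compared genes were higher and 0.935% lower. At 1.5-fold 1 was lower, Zc3h12a, beside 3.35% of all genes, and none was higher, beside 5.3%. Over all genes the median stood at 0.10 log2 with the deposited scaling, and at -0.01 log2 once rescaled by median of ratios, so differences are also given relative to the deposited median. Zc3h12a was 1.58-fold (1.48 to 1.68) lower with harmine, -0.74 log2 relative to all genes, and 2.69% of compared genes had a more negative difference. Zfp36 was 1.19-fold (1.15 to 1.23) lower and Zc3h12c 1.22-fold (1.16 to 1.28) lower, or -0.35 and -0.37 log2 relative to all genes. Of the 9, these had the most negative differences. Per library, Zc3h12a stood at 35.3, Zc3h12c at 27.4 and Zfp36 at 125 FPKM with harmine plus LPS, against 55.7, 33.3 and 148 FPKM with LPS.

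Zfp36l2 stood at 9.15 FPKM with harmine plus LPS against 6.43 FPKM with LPS, and Khsrp at 40.2 against 30.0 FPKM. The ratio was 1.42 (1.24 to 1.63) for Zfp36l2 and 1.34 (1.26 to 1.42) for Khsrp, 0.35 and 0.31 log2 relative to all genes. Those 2 differences and the 3 above kept their sign under every scaling and pseudocount tried. Elavl1 differed by 0.13 log2, and by 0.01 log2 when rescaled by median of ratios. Rc3h1, Rc3h2 and Zfp36l1 differed by 0.09, 0.03 and 0.04 log2, but by -0.03, -0.07 and -0.06 log2 under that rescaling, so no direction is given for them. The LPS library is shared by this comparison and the one with control.

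**Figure D3:**
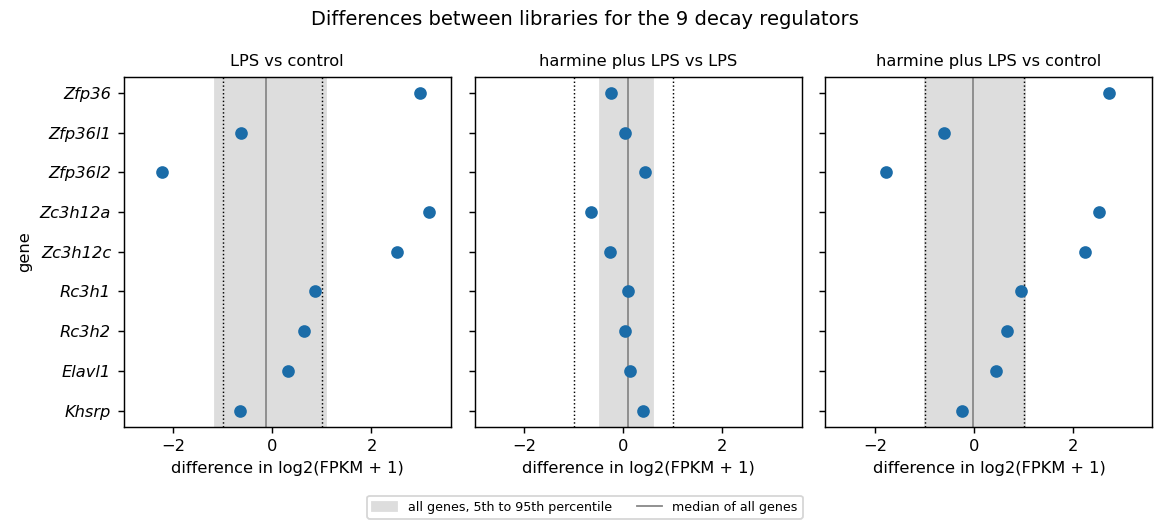
Difference in log2(FPKM + 1) of each of the 9 regulators for LPS against control (left), harmine plus LPS against LPS (middle) and harmine plus LPS against control (right). Grey bands hold the 5th to 95th percentile of all 12197 compared genes, the grey line is their median and dotted lines mark 2-fold; Zfp36, Zc3h12a, Zc3h12c and Zfp36l2 lie outside the band in the outer panels, and only Zc3h12a, at -0.64, lies outside it in the middle one.

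Against control, the harmine plus LPS library had the same counts as LPS alone, 3 regulators 2-fold or more higher and 1 lower, where 5.14% and 4.86% of all genes were higher and lower. At 1.5-fold there were 5 higher and 2 lower, beside 12.3% and 13.5%. The ratios of harmine plus LPS to control were 6.93 (6.49 to 7.40) for Zfp36, 6.60 (5.78 to 7.56) for Zc3h12a and 5.48 (5.00 to 6.00) for Zc3h12c. Zfp36l2 was 3.69-fold (3.35 to 4.08) lower. Rc3h1 stood at a plain FPKM ratio of 2.1 (1.95 to 2.28), but at 0.94 log2 on the log2(FPKM + 1) scale, just under the 2-fold line, which it passed with a pseudocount of 0.1 FPKM and after TPM rescaling. Khsrp was 1.18-fold (1.12 to 1.24) lower than in control.

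The promoter of Zfp36 is shown because this gene was the most abundant of the 9 with LPS and stood 8.23-fold above control. RefSeq promoters (GRCm38.p6, 250 bases before to 50 after the start) were given for 8 of the 9 regulators. They came as 9 sequences, because Zc3h12c had an additional promoter. The match to the serum response element (CArG box) stands in capitals.
Zfp36 (chr7:28379179-28379478, minus strand): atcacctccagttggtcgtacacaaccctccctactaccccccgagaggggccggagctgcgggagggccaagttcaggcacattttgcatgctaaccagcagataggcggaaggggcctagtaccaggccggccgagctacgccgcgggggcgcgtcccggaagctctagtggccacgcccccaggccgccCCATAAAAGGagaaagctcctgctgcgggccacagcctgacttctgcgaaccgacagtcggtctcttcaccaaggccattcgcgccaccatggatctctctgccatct
Searched on both strands, the CArG box was found in Zfp36 only among the 8, starting 58 bases before the start site. It was in 1.63% of 32851 promoters of the same length and in 1.20% of the 10543 promoters of compared genes. The NF-kB consensus was found in Zc3h12c only among the 8, and it was in 8.46% of all promoters and in 10.3% of those of compared genes. The match lay in the Zc3h12c promoter at chr9:52168357-52168656 and not in its other promoter, at chr9:52149314-52149613. The AP-1 motif TGANTCA was found in Rc3h1 and Zfp36l1, and in 7.81% of all promoters and 4.93% of those of compared genes. The CRE motif TGACGTCA was in none of the 8, and in 1.79% of all promoters and 3.23% of those of compared genes. The GC box GGGCGG was in 5 of the 8, in 35.7% of all promoters and in 62.8% of those of compared genes, so that its share among the 8 was near that of compared genes. These are matches of letters within a short window and say nothing of which factor acted.

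The genes most like each strongly different regulator were found over the 3 libraries, by distance on a pair of log2(FPKM + 1) differences. The pair was LPS minus control and harmine plus LPS minus LPS. The search covered 4686 protein-coding genes with at least 10 FPKM in 1 library, leaving out predicted genes, pseudogenes, Rik clones and mitochondrial genes. For Zfp36 these were the death receptor gene Fas (distance 0.10 log2), and Igtp and Irgm2, which encode interferon-inducible GTPases (0.18 and 0.19). For Zc3h12a they were Oas3, an antiviral oligoadenylate synthetase (0.18), Xaf1 (0.18) and Isg20, an exonuclease (0.19). For Zc3h12c they were the histone demethylase gene Kdm6b (0.11), Eif2ak2, which encodes the kinase PKR (0.15), and the NF-kB subunit gene Nfkb1 (0.16). For Zfp36l2 they were the growth factor gene Vegfb (0.08), the claudin gene Cldn11 (0.09) and Haus4, of the augmin complex (0.11). The scale shrinks differences where FPKM is low, so genes alike on it can differ in plain ratio. Fas stood at 11.0 FPKM with LPS against 0.50 FPKM in control, and Isg20 at 13.9 against 0.485 FPKM. With 3 libraries this is a description of values.

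Most genes of the decay machinery on which the regulators call lay within 2-fold, as did most of all compared genes. For LPS against control, 5.79% of the 12197 compared genes passed this line upward and 7.21% downward. Of 15 compared genes of the CCR4-NOT deadenylase and its TOB and BTG partners, 2 were 2-fold or more higher with LPS than in control and none lower, with a median of 0.02 log2. Those 2 were partners: Btg2, an antiproliferative protein that binds the deadenylase, at 19.0 FPKM with LPS against 5.51 FPKM in control, and Tob2 at 11.9 against 5.09 FPKM. Cnot1, the scaffold to which tristetraprolin and roquin bind, stood at 17.7 FPKM with harmine plus LPS, 15.7 FPKM with LPS and 17.8 FPKM in control. None of 18 decapping and 5′ decay genes and none of 15 exosome and 3′ decay genes passed 2-fold on the log2(FPKM + 1) scale in any of the 3 comparisons. In plain FPKM, Dcp1b was 2.50-fold (1.9 to 3.32) lower with LPS than in control, at low levels of 0.757 against 1.89 FPKM. Their medians for LPS against control were -0.17 and -0.08 log2. The furthest on the log2(FPKM + 1) scale were Lsm7, of the LSM ring, at -0.94 log2, and the exosome gene Exosc5 at -0.83 log2. The deadenylase genes Pan2, Pan3 and Parn stayed within 1.5-fold on the log2(FPKM + 1) scale in all 3 comparisons. With harmine plus LPS against LPS, no gene of these 4 lists passed 2-fold, beside 0.664% of all genes higher and 0.935% lower. At 1.5-fold 1 passed, Btg1, at 89.7 FPKM with harmine plus LPS against 48.2 FPKM with LPS. Of all genes, 5.3% were higher and 3.35% lower at 1.5-fold. Against control, harmine plus LPS gave 3 higher in the first list, Btg1, Btg2 and Tob2, and none in the other 3. Of all genes, 5.14% were 2-fold or more higher there and 4.86% lower.

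Other proteins that bind AU-rich or stem-loop elements were mostly within 2-fold between libraries, as were most of all compared genes. Of 24 compared, 2 were 2-fold or more higher with LPS than in control on the log2(FPKM + 1) scale and none lower. Of all genes, 5.79% were higher and 7.21% lower. The 2 were Cpeb4, a cytoplasmic polyadenylation factor, at 5.96 against 0.282 FPKM, and Igf2bp2, an mRNA-stabilising protein, at 9.72 against 2.70 FPKM. With harmine plus LPS, Cpeb4 stood at 1.42 FPKM, 4.19-fold (3.49 to 5.07) lower than with LPS. It was the 1 gene of the list past 2-fold on the log2(FPKM + 1) scale there, beside 0.664% of all genes higher and 0.935% lower. On that scale harmine plus LPS against control gave 1 higher, Igf2bp2, and 1 lower, Hnrnpd, beside 5.14% and 4.86% of all genes. In plain FPKM, Cpeb4 was also 5.04 times (3.39 to 7.74) its control level. Igf2bp2 stood at 16.2 FPKM with harmine plus LPS, 1.67 times (1.55 to 1.80) its LPS level. Hnrnpd, encoding the decay factor AUF1, stood at 20.7 FPKM with harmine plus LPS, 31.6 FPKM with LPS and 47.7 FPKM in control, lower in each LPS library than in control. Arid5a, which protects Il6 mRNA from regnase 1, was at 0.703, 1.41 and 0.416 FPKM in the same order, with a plain LPS to control ratio of 3.40 (2.66 to 4.37). In plain FPKM Arid5a was 2.01-fold (1.63 to 2.48) lower with harmine plus LPS than in the LPS library, and Celf2 was 2.51-fold lower with harmine plus LPS than in control.

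Among 21 compared regulators of the 9 proteins, 4 were 2-fold or more higher with LPS than in control, beside 5.79% of all genes. Malt1, a protease that cleaves regnase 1 and roquins in T cells, stood at 22.1 FPKM with LPS against 2.48 FPKM in control. The kinase gene Ikbke stood at 30.8 against 3.35 FPKM, Tank at 17.6 against 7.09 FPKM, and Dusp1, a MAP kinase phosphatase, at 3.80 against 1.38 FPKM. Mapkapk2, which encodes the kinase MK2 that phosphorylates tristetraprolin and restrains its activity, stood at 172 FPKM with harmine plus LPS, 284 FPKM with LPS and 184 FPKM in control. The harmine plus LPS level was 1.65-fold (1.61 to 1.70) under that with LPS. Its activator p38 alpha, encoded by Mapk14, stood at 13.5 FPKM with harmine plus LPS, 16.5 FPKM with LPS and 32.9 FPKM in control. Harmine plus LPS against control gave 3 higher, beside 5.14% of all genes, and Mapk14 stood at -1.22 log2. None of the 21 passed 2-fold with harmine plus LPS against LPS, beside 0.664% of all genes higher and 0.935% lower. The genes Ikbke and Mapkapk2 were the 2 that were 1.5-fold or more lower, beside 3.35% of all genes.

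Transcripts known as targets of the 9 regulators include cytokines, chemokines and growth factors. Of 29 compared, 25 stood at least 2-fold above control with LPS, beside 5.79% of all genes, and none at least 2-fold below, beside 7.21%. With harmine plus LPS, 21 stood at least 2-fold above control, beside 5.14% of all genes, and none at least 2-fold below, beside 4.86%. Harmine plus LPS stood at least 2-fold under LPS for 12 of the 29 and above it for none, beside 0.935% and 0.664% of all genes. The median of the 29 was -0.81 log2 beside 0.10 log2 for all genes. The list was written with results of these data known, so its direction is not independent evidence.

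Csf2, the gene of the growth factor GM-CSF, has 9 heptamers in 317 bases of 3′ UTR and stood at 21.8 FPKM with harmine plus LPS, 66.8 FPKM with LPS and 0.532 FPKM in control. Tnf, the classic target of tristetraprolin, has 8 and stood at 1016 FPKM with harmine plus LPS, 1436 FPKM with LPS and 55.6 FPKM in control. Cxcl2, a chemokine for neutrophils, has 7 and stood at 219, 985 and 3.13 FPKM in the same order. Among these 3 heptamer-rich transcripts, the harmine plus LPS level was 1.41-fold (1.39 to 1.44) under the LPS level for Tnf, 3.06-fold (2.67 to 3.52) for Csf2 and 4.50-fold (4.39 to 4.62) for Cxcl2. Ptgs2, encoding cyclooxygenase 2, has 6 heptamers and stood at 233 FPKM with harmine plus LPS, 425 FPKM with LPS and 2.53 FPKM in control. Il1b, encoding interleukin 1 beta, has 3 and stood at 224, 484 and 0.836 FPKM in the same order. Il6, a target of regnase 1 as well as of tristetraprolin, has 1 heptamer and stood at 3.54 FPKM with harmine plus LPS and 20.4 FPKM with LPS, with no counts in control. Its harmine plus LPS level was 5.76-fold (4.80 to 6.96) under the LPS level, and against a floor of 12 counts (3 read pairs) in the control library its LPS level was at least 273-fold higher. For Ptgs2 and Il1b the harmine plus LPS level was 1.82-fold (1.79 to 1.86) and 2.16-fold (2.1 to 2.23) under the LPS level.

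**Figure D4:**
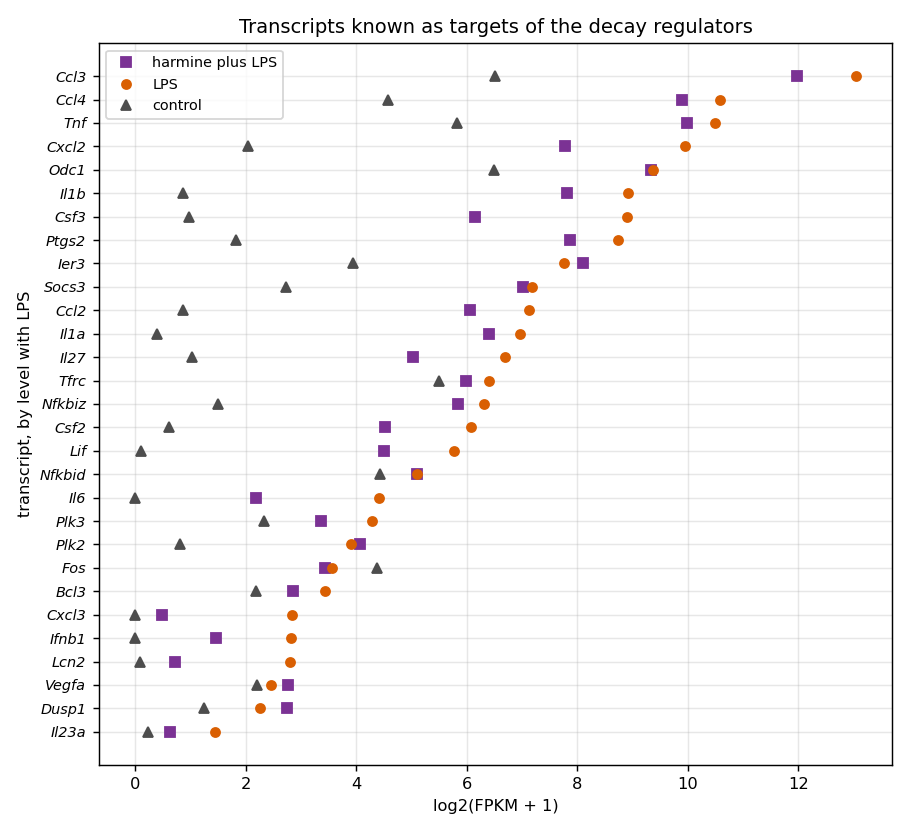
log2(FPKM + 1) of the 29 compared target transcripts with harmine plus LPS (squares), with LPS (circles) and in control (triangles), ordered by level with LPS. Squares and circles lie to the right of the triangles for most transcripts, and squares lie left of circles by 1 log2 or more for 12.

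Targets with and without the heptamer were both among those lower with harmine. Of the 23 with at least 1 TATTTAT, 10 stood at least 2-fold under their LPS level when harmine preceded LPS, and of the 6 without it 2 did, Ccl2 and Lcn2. The medians were -0.86 and -0.53 log2; the difference between these sets was not tested. Over the 9963 compared genes with an annotated 3′ UTR, the share 2-fold or more higher with LPS was 5.78% of 7041 genes with no heptamer, 5.50% of 1909 with 1, 7.11% of 633 with 2, 8.20% of 244 with 3 and 15.4% of 136 with 4 or more. The share 2-fold or more lower was 8.85%, 5.97%, 5.21%, 4.92% and 2.94% in the same order. Without the 9 regulators and the listed targets, 10.2% of the 127 genes with 4 or more were higher, against 5.70% of the 7033 with none. Among 3′ UTRs of at least 2000 bases the shares higher were 10.2% of 108 genes with 4 or more and 3.85% of 1300 with none. For harmine plus LPS against LPS the median lay between 0.07 and 0.11 log2 in every heptamer class. The share 2-fold or more lower there was 0.909%, 0.891%, 0.948%, 2.05% and 2.94%, from none to 4 or more heptamers. Without the 9 regulators and the listed targets it was 0.882%, 0.735%, 0.64%, 1.70% and 0%. Among 3′ UTRs of at least 2000 bases, with the listed targets kept, it was 0.462%, 0.354%, 0%, 1.10% and 0.926% in the same order. The last of these shares was 1 of 108 genes.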

How the data were processed

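The RNA was poly(A)-selected and sequenced as pairs of 150-base reads with the second strand marked by dUTP, per the labels' protocols. The authors deposited FPKM and a whole-number count per gene and library, per the file headers. Per the submitters' processing notes, StringTie 2.1.6, HISAT2 2.2.1, edgeR, DESeq2, cutadapt 1.9 and the build mm10 were named; their roles, and any filter on genes, are not stated there. In each library more genes had a count of 4 than of 3, so 4 counts were taken as 1 read pair, an assumption on which the counting intervals and the floor of 12 counts rest. FPKM was compared on log2(FPKM + 1) with Python 3.11.15, numpy 2.4.6 and pandas 2.3.3; plain FPKM ratios carry exact binomial intervals and single levels exact Poisson intervals (scipy 1.17.1). With 1 library a group, no model was fitted. The steps were checked on simulated data that held counting error only, so that check does not cover variation between cultures. Tests by replicate, and replicates left out, were not possible. The members, the 7 lists and the rule for named genes (all members; up to 4 genes per list with the largest differences, and 6 set targets; the 3 most alike genes) were chosen with earlier results of these data known. Cnot1, Mapk14, Lcn2 and Ccl2 were named after their values were seen. The longest annotated 3′ UTR of the transcripts listed for each gene stood for it. Lower counts for the list of regulators of the 9 proteins are not reported here.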

Additional observations from a re-analysis of the deposited data

How the results depend on the processing

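No replicate could be left out and no paired analysis was possible because each group holds 1 library. The members 2-fold or more different were 3 higher and 1 lower for LPS against control, and none for harmine plus LPS against LPS, under both other pseudocounts, both other filters and all 3 rescalings. For harmine plus LPS against control they were 3 higher and 1 lower, except that Rc3h1 made 4 higher with a pseudocount of 0.1 FPKM and after TPM rescaling. A 1.5-fold threshold gave 5 higher and 3 lower, none higher and 1 lower, and 5 higher and 2 lower for the 3 comparisons in that order. Of 27 member differences, 3 had another sign in some alternative, all for harmine plus LPS against LPS (Rc3h1, Rc3h2 and Zfp36l1). A filter at 5 FPKM left out Zfp36l1 and Rc3h2, neither of which was past 2-fold. Filters leave genes out and change no difference, so the same member counts under them are not a check. Counts over all genes moved more. For LPS against control, 706 higher and 880 lower became 1068 and 1482 with a pseudocount of 0.1, 347 and 291 with 5, 1327 and 1405 with TPM, and 1426 and 2356 at 1.5-fold. For harmine plus LPS against LPS, 81 and 114 became 350 and 226, 15 and 38, 345 and 254, and 646 and 408 in the same order, and 47 were higher with the 5 FPKM filter. For harmine plus LPS against control, 627 and 593 became 1068 and 975, 296 and 188, 1359 and 959, and 1500 and 1652. Higher genes made up 44.5%, 41.5% and 51.4% of calls in the 3 comparisons, and 55.9%, 27.2% and 53.1% after median-of-ratios rescaling; TPM rescaling gave 57.6% for harmine plus LPS against LPS. The low counts of Zfp36l1 (528 with harmine plus LPS, 481 with LPS, 935 in control) make it the regulator with the widest counting interval. Taking 1 count as 1 read pair narrowed the counting intervals and left the ratios as they were.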
